A study of Caenorhabditis elegans with 16 samples.

Results

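The transcripts of 44 genes for the splicing machinery of Caenorhabditis elegans were followed through starvation, feeding and inhibition of the kinase CDK-12 in first-stage (L1) larvae. The genes were chosen by name from the 24654 genes of the deposited count table. They are all rows named snr, lsm, rsp, prp or mog followed by a number, and uaf-1, uaf-2, sfa-1, smn-1, sna-1, sna-2, sut-2 and prmt-5. All 44 passed the filter on low counts, as did 15845 genes of the table. By class they are 7 Sm genes, 7 LSm genes, 8 SR genes, 9 Prp genes, 5 Mog genes, 3 genes of 3′ splice site recognition, 4 genes of the spliced leader particle and of Sm assembly, and sut-2.

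RNA came from whole larvae of the N2 wild type and of cdk12-as, a strain whose CDK-12 can be blocked by the bulky compound 3MB-PP1. In both strains, bleached embryos had been left in medium with no food for 12 h or more at 20 °C, so that the larvae stood arrested at L1. The start libraries were taken from this arrested culture, to which no DMSO is recorded as added. The rest of the culture was kept for 4 h in 1 of 3 ways: without food in 0.1% DMSO (starved), with OP50 bacteria in 0.1% DMSO (fed), or with OP50 and 1 µM 3MB-PP1 dissolved in DMSO (fed with inhibitor). The sources used here do not give the final DMSO of the inhibitor cultures, the allele behind cdk12-as or the number of clones. Each of the 8 groups holds 2 libraries of ribosome-depleted RNA, and nothing in the labels says that the libraries of a group came from separate cultures. The p-values therefore measure the spread between these libraries, which may be technical.

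Splicing removes introns in particles built around small nuclear RNAs. A ring of Sm proteins sits on most of these RNAs, while rings of LSm proteins sit on the U6 RNA in the nucleus and on decaying mRNA in the cytoplasm. SR proteins bind exons and help to choose splice sites, and Prp and Mog proteins include core subunits and the helicases that drive the steps of splicing. Many nematode mRNAs also receive a short spliced leader by trans-splicing, which separates the mRNAs of genes transcribed together as operons. CDK-12 phosphorylates the tail of RNA polymerase II during elongation.

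Gene counts summed to 18588196 to 56644943 per library, and 20.3 to 50.7% of these fell on a single ribosomal RNA gene, rrn-2.1. This share went with the replicate number, at 34.8 to 50.7% in replicate 1 libraries and 20.3 to 33.4% in replicate 2 libraries. Levels are given below as CPM, counts per library size scaled with TMM, and differences as log2 fold changes with their standard error. A gene was called when its adjusted p (edgeR quasi-likelihood test, Benjamini-Hochberg over 15845 genes) was under 0.05. The 44 genes together took 0.47 to 0.52% of all counts outside rrn-2.1 in the wild type libraries, 0.37 to 0.42% in cdk12-as start and starved libraries and 0.44 to 0.48% in cdk12-as fed libraries with and without inhibitor. The cdk-12 transcript itself was 44.3 and 47.3 CPM in starved wild type and 37.2 and 47.9 CPM in starved cdk12-as, and the kinase change in cdk12-as is not one that a gene count can check. In RNA from whole larvae, fewer cells of a type and less RNA per cell cannot be told apart.

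Per kilobase of coding length, the Sm genes were among the most abundant of the 44 in arrested wild type larvae. The lengths came from a second deposited table, and whether the counts cover the same stretches of each gene is not given. How far this moves short genes in the ranking was not tested. Mean levels of the 7 Sm genes at the start ran from 76.0 CPM per kilobase for snr-2 to 197 for snr-7, with a median of 124. The median was 36.0 for the LSm genes, 39.2 for the SR genes and 36.8 for the Prp genes. Of the other classes, uaf-1 (120), rsp-3 (131) and prp-8 (97.8 CPM per kilobase) stood highest, and prmt-5 (11.3) and prp-4 (12.0) lowest of all 44.

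The cdk12-as strain held less mRNA for the Sm ring and for much of the core spliceosome than the wild type before any food or inhibitor was given. At the start 21 of the 44 genes were lower in cdk12-as and none was higher, where 24.4% of all genes tested differed, 11.6% lower and 12.8% higher. After 4 h more of starvation 25 were lower and none higher, where 18.1% of all genes differed, 8.28% lower and 9.8% higher. All 21 genes lower at the start were among the 25, and the 4 others were mog-2, prp-3, prp-4 and prp-8. The median log2 difference of the 44 genes was -0.32 at the start and -0.49 after starvation, beside 0.00 and -0.01 for all genes. With total counts 7 were lower at the start and 10 after starvation, and none was higher. Start and starved libraries are separate samples, but both comparisons ask about the same 2 strains.

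All 7 Sm genes were lower in cdk12-as at both times. Their median log2 difference was -0.71 at the start and -0.91 after starvation, and it stayed below 0 under each of the 3 other scalings of the libraries. With total counts 3 of the 7 Sm genes were called at the start (snr-1, snr-6 and snr-7) and 5 after starvation (those and snr-3 and snr-4). The calls of snr-2 and snr-5 were also lost without any 1 of 2 libraries at the start, and without any 1 of 3 and of 2 after starvation. The lowest was snr-6, the SmE gene, with 30.2 and 37.5 CPM in wild type and 13.5 and 16 CPM in cdk12-as at the start, and 33.3 and 35.7 against 12.2 and 16.3 CPM after starvation. Its log2 differences were -1.196 ± 0.16 (adjusted p = 0.000292) and -1.28 ± 0.16 (adjusted p = 0.000268). For snr-4, the SmD2 gene, the starved libraries held 69.3 and 73.4 CPM in wild type and 36.4 and 38.6 CPM in cdk12-as. For snr-1, the SmD3 gene, they held 79.9 and 83.6 and 44.1 and 42.6 CPM. Neither gene's libraries overlapped between strains, and the log2 differences were -0.93 ± 0.08 (adjusted p = 2.35e-05) and -0.91 ± 0.09 (adjusted p = 4.75e-05).

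Every one of the 9 Prp genes was lower in starved cdk12-as, and 6 of the 9 at the start. The largest difference was that of prp-31, which codes for a protein of the U4/U6 particle, at 98.9 and 93.3 CPM in starved wild type and 46.9 and 46.8 CPM in starved cdk12-as, a log2 difference of -1.04 ± 0.08 (adjusted p = 1.26e-05). The gene prp-21, for a subunit of the U2 particle, was at 64.6 and 62.9 and 37.4 and 42.4 CPM, -0.68 ± 0.08 (adjusted p = 0.000118). The wild type libraries of both genes lay above both cdk12-as libraries. Of the Mog genes, the helicase genes mog-4 and mog-5 were lower at both times, with starved log2 differences of -0.78 ± 0.13 and -0.62 ± 0.08, and mog-1, also a helicase gene, was not called (-0.06 and -0.25).

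Among partners of the Sm ring, smn-1, sna-1 and sna-2 were lower in starved cdk12-as. The gene smn-1, whose product loads the Sm ring onto RNA in other animals, was at 14 and 13.8 CPM in starved wild type and 9.42 and 8.78 CPM in starved cdk12-as, -0.61 ± 0.09 (adjusted p = 0.000891). The spliced leader particle gene sna-1 was at 17 and 16.7 and 11 and 11.5 CPM, -0.58 ± 0.10 (adjusted p = 0.00135), and sna-2 differed by -0.77 ± 0.18 (adjusted p = 0.0109), a call lost without any 1 of 2 libraries. The gene prmt-5, for a methyltransferase that modifies Sm proteins in mammals, was not called, at -0.20 and -0.20. Of 3′ splice site recognition, uaf-1, the large U2AF subunit, was at 211 and 202 and 122 and 133 CPM after starvation, -0.69 ± 0.11 (adjusted p = 0.00125), while uaf-2 and sfa-1 were not called.

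Few SR and LSm genes were called between the strains. Of the 8 SR genes only rsp-7 was called, at -0.31 ± 0.07 (adjusted p = 0.0104) and -0.37 ± 0.07 (adjusted p = 0.00479), and of the 7 LSm genes only lsm-7, at -0.65 ± 0.11 (adjusted p = 0.00127) and -0.74 ± 0.11 (adjusted p = 0.000772). The call of rsp-7 at the start was lost without any 1 of 2 libraries, and no SR gene was called with total counts. The median of the SR genes was 0.05 at the start, where scaling by total counts turned it to -0.07, and -0.21 after starvation. The LSm median was -0.13 at the start and -0.25 after starvation, with 5 of the 7 genes below 0 at both times. After starvation lsm-8 was at -0.58 ± 0.19 (adjusted p = 0.057). No test compared one class with another. Tissue markers were read in the same fit. At the start 3 of 8 germ line, 2 of 13 oocyte and early embryo, 2 of 6 pharynx and 2 of 9 neuron markers were higher in cdk12-as, 1 of 9 neuron and 1 of 6 epidermis markers were lower, 1 of 7 intestine markers was higher and 1 lower, and no muscle marker was called. In starved larvae none of 6 body wall muscle, 7 intestine and 9 neuron markers was called, 2 of 6 epidermis markers were lower, and 2 of 6 pharynx, 1 of 8 germ line and 1 of 13 oocyte and early embryo markers were higher, and their part in the result was not tested. Summed germ line markers were 55.7 and 61.3 CPM in wild type and 74.2 and 74.0 CPM in cdk12-as at the start, and 61.3 and 63.2 against 51.5 and 59.1 CPM after starvation. Oocyte and early embryo markers summed to 155 and 165 against 208 and 218 CPM at the start, and to 176 and 179 against 177 and 234 CPM after starvation.

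**Figure D1:**
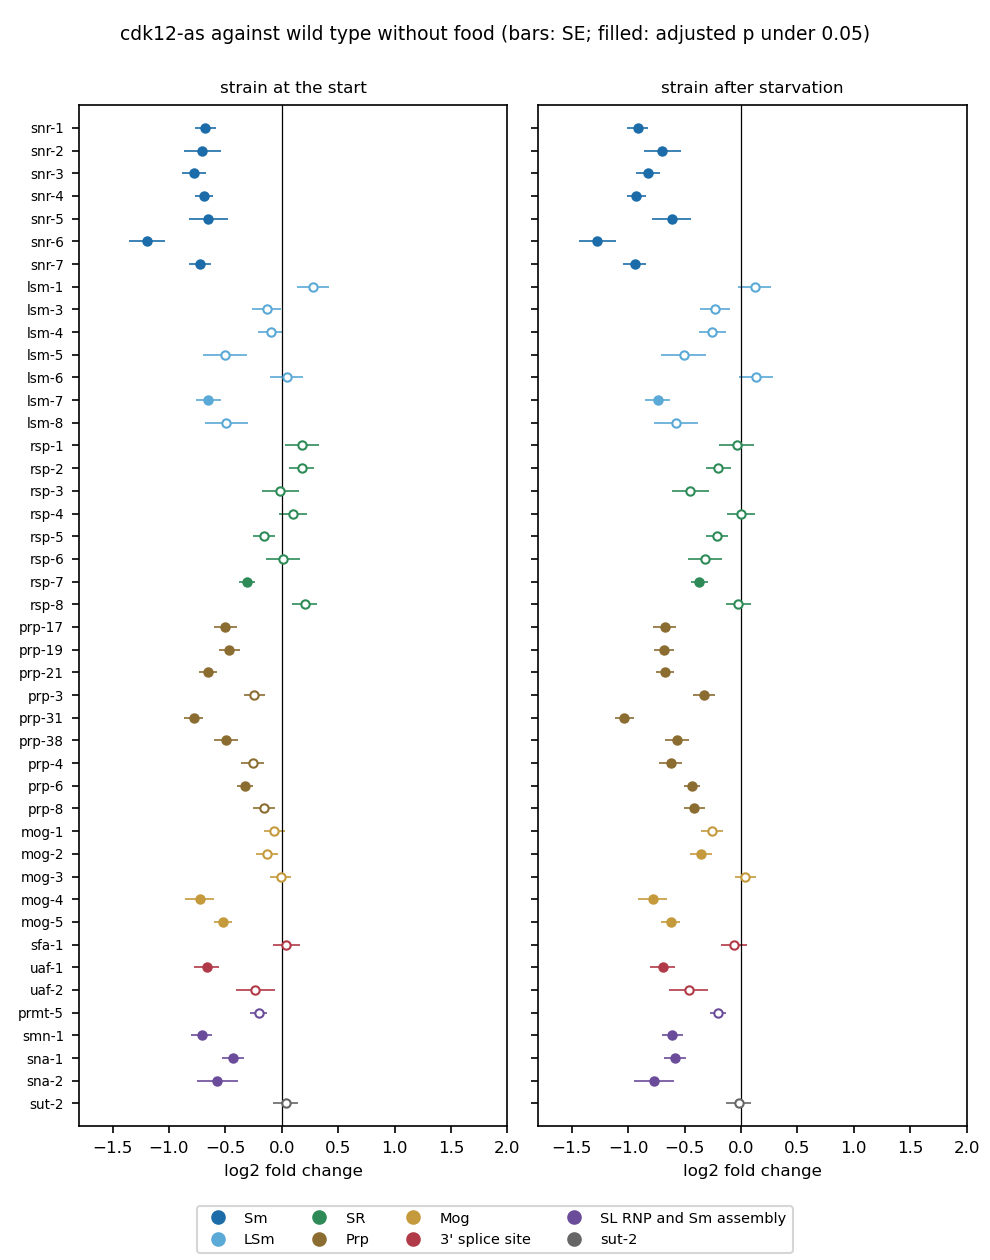
Log2 differences of the 44 transcripts between cdk12-as and wild type (x axis) at the start and after starvation, with one row per gene, colours for classes, bars for the standard error and filled points for adjusted p under 0.05. All filled points lie left of 0, 21 at the start and 25 after starvation, and they take in all 7 Sm genes in both panels.

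With TMM scaling, food raised 7 of the 8 SR genes and 5 of the 7 LSm genes in the wild type and moved the rest of the machinery both ways. Between starved and fed wild type larvae, 26 of the 44 genes changed, 19 up and 7 down, where 46% of all genes tested changed, 24.4% up and 21.5% down. The median log2 change of the 44 genes was 0.23, beside -0.01 for all genes, but it was -0.14 with scaling by total counts and -0.02 with total counts outside rrn-2.1, which shifted the all-gene median by -0.37 and -0.25. With total counts 5 genes rose and 5 fell, and with rrn-2.1 left out 13 rose and 12 fell. Marker sums moved with food too: body wall muscle markers summed to 10355 and 10063 CPM in starved and 4720 and 5600 CPM in fed wild type larvae, with 5 of 6 markers lower, and their part in the changes was not tested. Intestine markers summed to 692 and 608 CPM in starved and 1441 and 1660 CPM in fed wild type. Of these 7 markers 3 rose and 2 fell, with log2 changes from -1.44 to 2.07 and a median of 0.22.

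With food in wild type 7 of the 8 SR genes rose, all but rsp-3, the SF2/ASF gene, at 0.40 ± 0.16 (adjusted p = 0.0589). The class median was 0.77 and stayed above 0 under each other scaling, at 0.41 with total counts, where no SR gene was called and rsp-7 turned below 0. The gene rsp-8 went from 40.4 and 42 CPM in starved to 79.7 and 87.3 CPM in fed wild type, a change of 1.02 ± 0.11 (adjusted p = 1.02e-05). The gene rsp-5 went from 17.2 and 17.8 to 30.3 and 33.7 CPM, 0.87 ± 0.10 (adjusted p = 1.06e-05). In both genes each fed library lay above both starved libraries. The others that rose ranged from 0.25 for rsp-7 to 0.99 for rsp-2.

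In all, 5 of the 7 LSm genes rose in fed wild type larvae. The gene lsm-6 went from 6.85 and 7.77 to 20.5 and 22.5 CPM, 1.56 ± 0.15 (adjusted p = 2.7e-06), the largest change of the 44. The gene lsm-3 went from 7.81 and 9.30 to 17.5 and 20.6 CPM, 1.16 ± 0.13 (adjusted p = 1.16e-05). The gene lsm-1, which belongs to the cytoplasmic ring of mRNA decay, rose by 1.14, while lsm-8, the mark of the nuclear ring, was at 0.43 ± 0.19 (adjusted p = 0.0821) and lsm-5 at -0.06. The LSm median was 0.89, and 0.51 with total counts, where lsm-1, lsm-3 and lsm-6 were still called.

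Outside these classes the wild type response was mixed. The gene mog-2, for a protein of the U2 particle, went from 16.7 and 16 to 40.3 and 38.3 CPM, 1.26 ± 0.10 (adjusted p = 4.58e-07), and prmt-5 from 27.6 and 28.4 to 66 and 63 CPM, 1.204 ± 0.07 (adjusted p = 8.2e-08). Both were called under each alternative run. The helicase gene mog-5 fell from 140 and 137 to 98.5 and 94.4 CPM, -0.52 ± 0.08 (adjusted p = 0.000203), and mog-1 and mog-4 were at -0.27 and -0.44. The call of mog-1 was lost without any 1 of 7 libraries, with no filter and with total counts, and that of mog-4 without any 1 of 4 libraries and with total counts. The gene prp-31 fell from 98.9 and 93.3 to 62.6 and 58.5 CPM, -0.67 ± 0.08 (adjusted p = 3.08e-05). The spliced leader gene sna-1 fell from 17 and 16.7 to 10.4 and 9.90 CPM, -0.73 ± 0.10 (adjusted p = 4.86e-05). The gene prp-19, which codes for a ubiquitin ligase of the spliceosome, rose from 86.3 and 92 to 120 and 126 CPM, 0.46 ± 0.09 (adjusted p = 0.000991), and was not called with total counts.

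The Sm and Prp genes had no shared direction with food in wild type. Among Sm genes, snr-3 (SmD1) went from 42.6 and 39.9 to 57.9 and 63.4 CPM, 0.55 ± 0.11 (adjusted p = 0.000873), and snr-5 (SmF) from 24.9 and 34.1 to 42.2 and 49.9 CPM, 0.64 ± 0.17 (adjusted p = 0.00778). The starved and fed libraries of these 2 genes did not overlap. In contrast snr-6 went from 33.3 and 35.7 to 24.9 and 26 CPM, -0.44 ± 0.16 (adjusted p = 0.0413), and 4 Sm genes were not called. The call of snr-6 was lost without any 1 of 5 libraries and that of snr-5 without any 1 of 2, and with total counts snr-6 was the 1 Sm gene called. The class medians were 0.10 for Sm and 0.07 for Prp, and both were below 0 with total counts and with total counts outside rrn-2.1. In 3′ splice site recognition uaf-1 fell from 211 and 202 to 165 and 155 CPM, -0.37 ± 0.11 (adjusted p = 0.0163), a call lost without any 1 of 2 libraries, and sfa-1, which codes for the branch point binding protein SF1, rose from 85 and 82.7 to 106 and 106 CPM, 0.34 ± 0.12 (adjusted p = 0.0309), a call lost without any 1 of 4 libraries and turned to -0.02 with total counts. The gene sut-2, for a zinc finger protein known from work on tau toxicity, was not called, at -0.16.

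In cdk12-as, food raised 25 of the 44 genes and lowered 1, where 27.7% of all genes tested changed, 15.6% up and 12.1% down. The median log2 change was 0.40, beside -0.08 for all genes. With total counts it was 0.33, but then 1 gene was called. Of the classes, 7 of 9 Prp genes, 6 of 8 SR genes, 5 of 7 Sm genes and 5 of 7 LSm genes rose, and the class medians were 0.38, 0.41, 0.69 and 0.73. None of these 4 medians turned below 0 under another scaling. Body wall muscle markers summed to 7786 and 10586 CPM in starved and 5821 and 6326 CPM in fed cdk12-as, with 2 of 6 markers lower, and their part was not tested. Of the 19 genes that rose in wild type, 17 rose here as well, or 89.5% of the wild type rises and 68% of the 25 here. Over all genes tested 2333 rose in both strains, 60.3% of the 3868 wild type rises and 94.1% of the 2479 in cdk12-as. These counts come from separate libraries of each strain and were given no test.

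The Sm genes with the smallest adjusted p for food in cdk12-as were snr-4 and snr-1, and the largest Sm change was that of snr-5, 0.88 ± 0.17 (adjusted p = 0.0021). The gene snr-4 went from 36.4 and 38.6 CPM in starved to 63.8 and 58.1 CPM in fed cdk12-as, 0.70 ± 0.08 (adjusted p = 5.09e-05), and snr-1 from 44.1 and 42.6 to 73.1 and 69.8 CPM, 0.72 ± 0.09 (adjusted p = 9.54e-05). The fed cdk12-as libraries of both genes remained below the fed wild type libraries (73 and 79.6 and 87.2 and 83.8 CPM). The gene prp-19 went from 51 and 59.9 to 95.6 and 94 CPM, 0.77 ± 0.09 (adjusted p = 4.63e-05), and prp-4 from 12.3 and 13.1 to 18.9 and 21.2 CPM, 0.67 ± 0.10 (adjusted p = 0.000435). All fed libraries of prp-19 and prp-4 lay above the starved ones. Among SR genes rsp-5 went from 14.4 and 15.8 to 23 and 23.1 CPM, 0.61 ± 0.10 (adjusted p = 0.000463), and rsp-2 from 45.8 and 52.6 to 72.2 and 84.9 CPM, 0.68 ± 0.11 (adjusted p = 0.000626). Among LSm genes lsm-6 went from 7.30 and 8.70 to 15.5 and 17.4 CPM, 1.04 ± 0.15 (adjusted p = 0.000185), and lsm-4 from 9.83 and 8.34 to 15.7 and 15.4 CPM, 0.77 ± 0.12 (adjusted p = 0.000313). For these 4 genes too, no fed library was as low as a starved one.

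The gene mog-2 rose with food in cdk12-as as well, from 13.1 and 12.5 to 27.4 and 26.4 CPM, 1.07 ± 0.10 (adjusted p = 7.06e-06), and was the 1 gene still called with total counts. The gene prmt-5 went from 24.8 and 23.8 to 37.7 and 37.2 CPM, 0.62 ± 0.07 (adjusted p = 5.51e-05). The only gene of the 44 that fell was uaf-1, from 122 and 133 to 91.5 and 103 CPM, -0.39 ± 0.11 (adjusted p = 0.0213), a call lost without any 1 of 2 libraries.

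An interaction term compared the response to food between the strains. It called 8 of the 44 genes, 6 toward a higher change in cdk12-as and 2 toward a lower one, where 6.72% of all genes tested were called, 3.79% and 2.93% in the same order. The higher ones were prp-31 (0.88 ± 0.12 (adjusted p = 0.00134)), snr-1 (0.66 ± 0.13 (adjusted p = 0.0109)), sna-1 (0.63 ± 0.14 (adjusted p = 0.0171)), snr-7 (0.63 ± 0.14 (adjusted p = 0.0188)), snr-4 (0.60 ± 0.12 (adjusted p = 0.00958)) and mog-5 (0.55 ± 0.12 (adjusted p = 0.0162)). The lower ones were rsp-8 (-0.64 ± 0.16 (adjusted p = 0.0329)) and prmt-5 (-0.58 ± 0.10 (adjusted p = 0.00649)). Food thus lowered prp-31 in wild type and left it at 0.22 in cdk12-as, while prmt-5 rose in both strains and by less in cdk12-as. Without a single library the count was 3 to 9. It was 4 without wild type starved replicate 1, wild type fed replicate 1, wild type fed replicate 2 or cdk12-as fed replicate 2, and 3 without wild type starved replicate 2. The 2 calls that no left-out library ended were those of prp-31 and prmt-5. With total counts, which shifted the all-gene median of this term by 0.31, none of the 8 was called. The 6 genes with a higher change were also among those lower in starved cdk12-as. The starved libraries of both strains enter this term and that strain comparison, so these calls share their error.

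**Figure D2:**
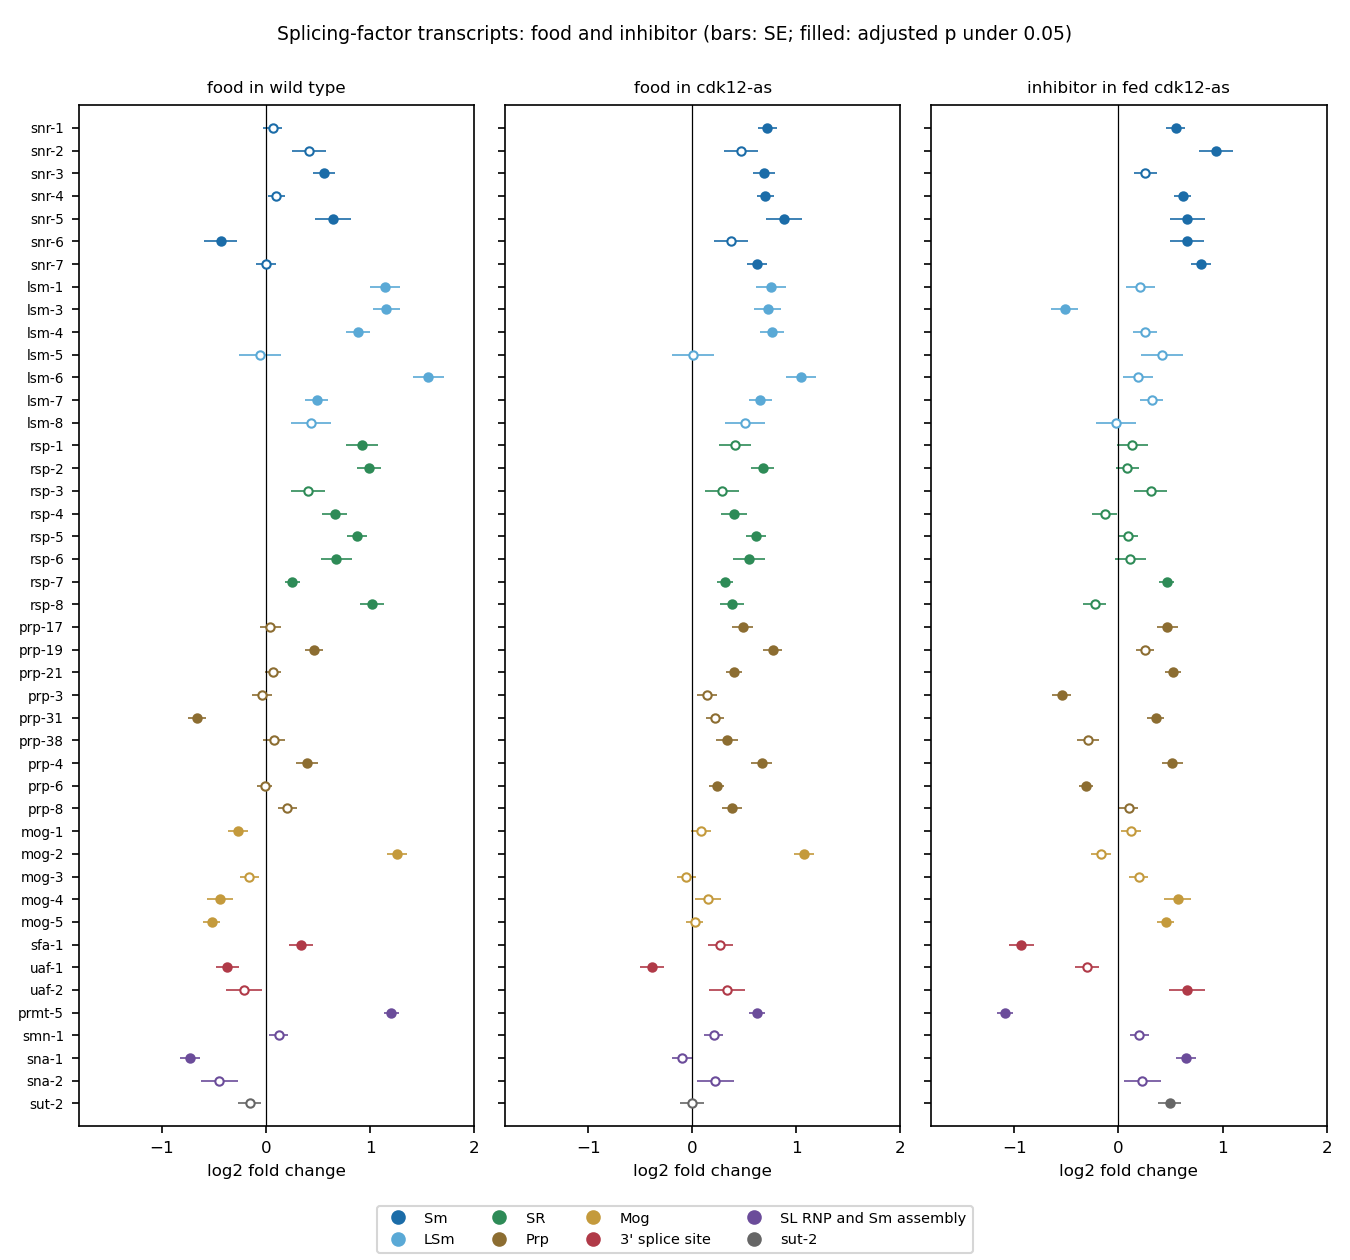
Log2 fold changes (x axes) of the 44 transcripts with food in wild type, with food in cdk12-as and with inhibitor in fed cdk12-as, with one row per gene, bars for the standard error and filled points for adjusted p under 0.05. The SR genes lie right of 0 in both food panels, and rsp-7 is the only one filled in the inhibitor panel, where 6 of 7 Sm genes are filled and right of 0 and prmt-5 and sfa-1 lie farthest left.

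With the inhibitor and TMM scaling, 6 of the 7 Sm mRNAs of fed cdk12-as larvae rose, while prmt-5 and sfa-1 fell below their levels in starved cdk12-as larvae. Between fed cdk12-as larvae without and with 3MB-PP1, 16 of the 44 genes rose and 5 fell, where 12.1% of all genes tested changed, 3.77% up and 8.37% down. The median log2 change of the 44 was 0.24, beside 0.06 for all genes. With total counts, with a shift of -0.21 in the all-gene median, no member was called as risen and 2 as fallen (prmt-5 and sfa-1). Leaving out cdk12-as fed replicate 1 gave 8 rises and 4 falls, and fitting only the 2 groups compared gave 8 rises and 3 falls. None of the tissue markers in 7 lists was called in this comparison. Epidermis markers summed to 1657 and 1935 CPM in fed and 1177 and 1380 CPM in fed cdk12-as with inhibitor, both lower. Yet 4 of the 6 epidermis markers had a log2 change above 0 and 2 below, with a median of 0.10. The part of the markers in the result was not tested.

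With the inhibitor 6 of the 7 Sm genes rose, and the other, snr-3, was at 0.26 ± 0.11 (adjusted p = 0.158). The Sm median was 0.66 and stayed above 0 under every other scaling, at 0.43 with total counts. The gene snr-7, for SmG, went from 35.1 and 35.9 CPM in fed to 67.1 and 56.2 CPM in fed cdk12-as with inhibitor, 0.80 ± 0.10 (adjusted p = 9.36e-05). The gene snr-4 went from 63.8 and 58.1 to 98.1 and 89.1 CPM, 0.62 ± 0.08 (adjusted p = 0.000186), and snr-1 from 73.1 and 69.8 to 108 and 101 CPM, 0.55 ± 0.09 (adjusted p = 0.00118). For these 3 genes the inhibitor libraries lay above every wild type library as well. The largest log2 change was that of snr-2, the SmB gene, from 35.2 and 27.6 to 66 and 54.5 CPM, 0.94 ± 0.16 (adjusted p = 0.00167). The gene snr-5 went from 32.4 and 38.4 to 54.9 and 57.2 CPM, 0.66 ± 0.17 (adjusted p = 0.0214), and snr-6 from 19.2 and 17.8 to 32.6 and 25.7 CPM, 0.66 ± 0.16 (adjusted p = 0.0169). The calls of snr-5 and snr-6 were each lost without any 1 of 3 libraries.

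Summed over the 7 Sm genes, cdk12-as libraries held 193 and 200 CPM at the start, 178 and 189 CPM after starvation, 295 and 287 CPM with food and 469 and 431 CPM with food and inhibitor. The wild type libraries held 319 and 339, 333 and 346, 380 and 394, and 423 and 417 CPM in the same order. The Sm sum of cdk12-as was therefore below the wild type in the first 3 conditions and above it with the inhibitor. These sums were given no test.

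**Figure D3:**
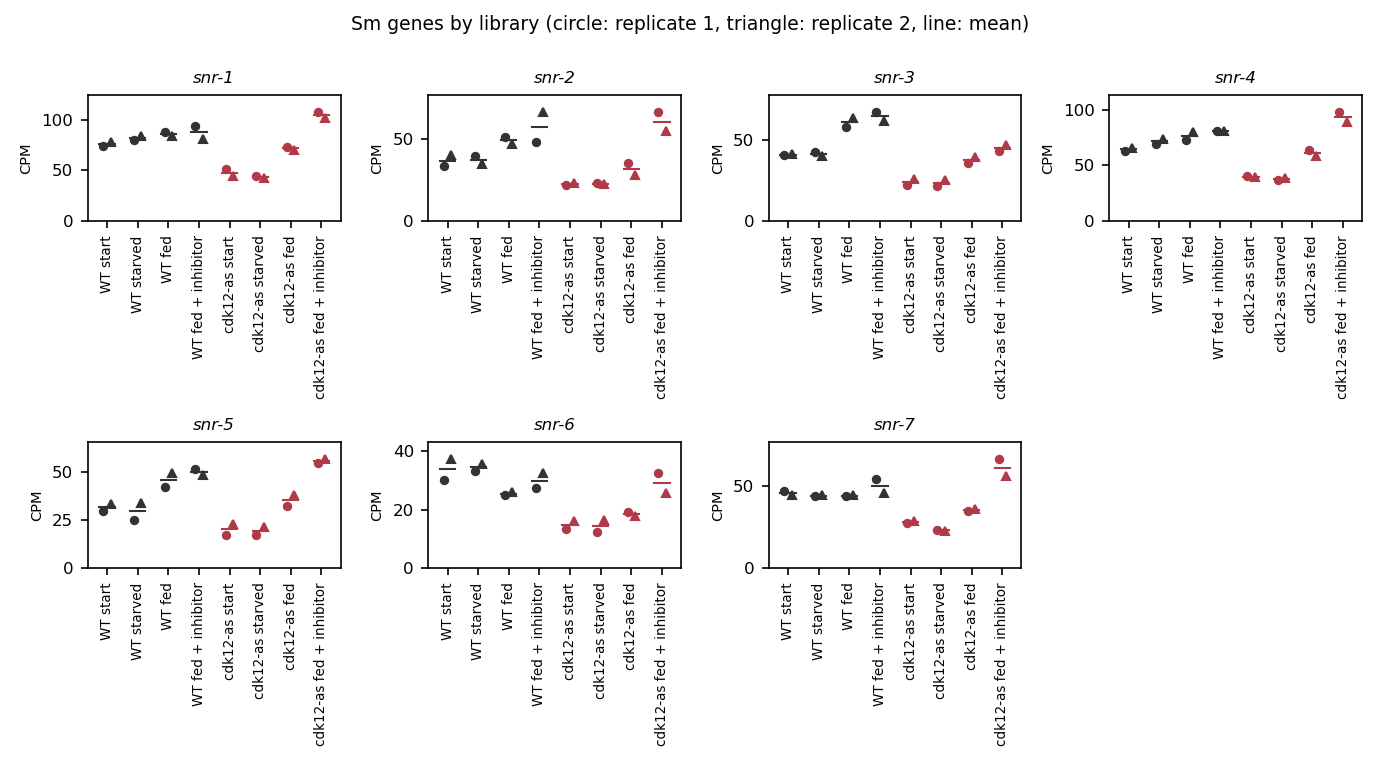
CPM (y axes, from 0) of the 7 Sm genes in each of the 16 libraries, grouped by condition on the x axis, wild type in black and cdk12-as in red, with circles for replicate 1, triangles for replicate 2 and lines for the mean of 2. In cdk12-as all 7 genes are lowest without food and highest with food and inhibitor.

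Other genes that rose with the inhibitor came from most classes. Of the Prp genes, prp-21 went from 50.7 and 54.7 to 74.5 and 76.9 CPM, 0.52 ± 0.08 (adjusted p = 0.000448), prp-4 from 18.9 and 21.2 to 27.8 and 29.8 CPM, 0.52 ± 0.10 (adjusted p = 0.00414), and prp-17, for a step-2 factor, from 44 and 44.6 to 61.4 and 61.3 CPM, 0.47 ± 0.10 (adjusted p = 0.00657). The gene prp-31 rose by 0.36, a call lost without any 1 of 4 libraries. The helicase gene mog-5 went from 86.2 and 96.8 to 122 and 128 CPM, 0.45 ± 0.08 (adjusted p = 0.00236), and mog-4 from 49.2 and 59.1 to 73.8 and 87 CPM, 0.57 ± 0.13 (adjusted p = 0.01). The calls of prp-17 and mog-4 were each lost without any 1 of 2 libraries, and that of prp-4 without 1. In prp-21, prp-4, prp-17, mog-4 and mog-5 no inhibitor library was as low as a fed library without it.

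The spliced leader gene sna-1 went from 9.76 and 11.2 to 17.3 and 15.7 CPM, 0.65 ± 0.10 (adjusted p = 0.000459). The small U2AF subunit gene uaf-2 went from 61.6 and 81.7 to 101 and 124 CPM, 0.66 ± 0.17 (adjusted p = 0.0258), and sut-2 from 75.2 and 85.5 to 101 and 125 CPM, 0.49 ± 0.11 (adjusted p = 0.01). Both calls were lost without cdk12-as fed replicate 1 or cdk12-as fed with inhibitor replicate 2, and in the fit of the 2 groups compared. Of the 8 SR genes only rsp-7 was called, from 58.8 and 61.4 to 81.3 and 84.2 CPM, 0.46 ± 0.07 (adjusted p = 0.000932). The SR gene with the next smallest adjusted p was rsp-8, at -0.23 ± 0.11 (adjusted p = 0.257). The SR median was 0.10 and turned to -0.10 with total counts. Among the LSm genes lsm-7 was at 0.32 ± 0.11 (adjusted p = 0.0846), and no LSm gene was called as risen.

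In contrast 5 genes fell. The gene prmt-5 went from 37.7 and 37.2 CPM in fed to 17.7 and 17.5 CPM in fed cdk12-as with inhibitor, -1.09 ± 0.07 (adjusted p = 1.31e-06), below its 24.8 and 23.8 CPM in starved cdk12-as. The gene sfa-1 went from 93 and 101 to 43.4 and 57.9 CPM, -0.93 ± 0.12 (adjusted p = 0.000126), also below the 79.4 and 81.1 CPM of starved larvae. Both calls held under each alternative run. The gene prp-3, for a U4/U6 protein, went from 60.0 and 60.0 to 38.4 and 43.6 CPM, -0.55 ± 0.10 (adjusted p = 0.00164), and prp-6, for a protein that joins the U4/U6 and U5 particles, from 148 and 152 to 120 and 121 CPM, -0.31 ± 0.07 (adjusted p = 0.00952). The gene lsm-3 went from 12 and 12 to 8.83 and 8.0 CPM, -0.52 ± 0.13 (adjusted p = 0.0186). In all 5 genes both inhibitor libraries lay below both fed libraries, and the calls of lsm-3 and prp-6 were each lost without any 1 of 3 libraries.

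**Figure D4:**
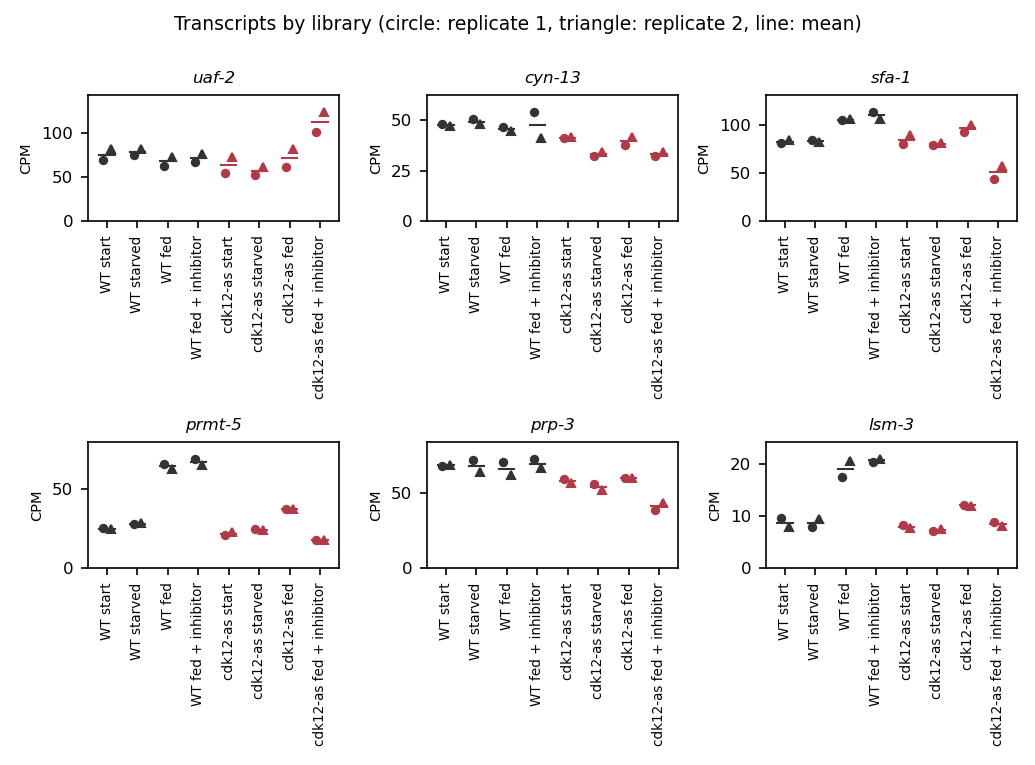
CPM (y axes, from 0) of 4 splicing genes that fell with the inhibitor in cdk12-as, prmt-5, sfa-1, prp-3 and lsm-3, and of uaf-2 and cyn-13, which precede sfa-1 on its strand, in each of 16 libraries (circle for replicate 1, triangle for replicate 2, line for the mean, wild type black, cdk12-as red). The red inhibitor points of prmt-5, sfa-1, prp-3 and lsm-3 lie below the red fed points, and those of uaf-2 above them.

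In fed wild type larvae, the same 1 µM of inhibitor changed none of the 44 genes past the threshold. By edgeR 0 of the 44 genes and 0% of all genes tested were called, with 1 of the 44 (sna-1, 0.22 ± 0.10 (adjusted p = 1)) and 305 of all genes at an unadjusted p under 0.05. DESeq2 called 0 of the 44 and, over all genes, 3 that fell. The log2 changes of the 44 ran from -0.09 to 0.26, with a median of 0.07, beside 0.03 for all genes. Of the 44, 37 lay above 0, beside 9142 of all 15845 genes tested. All 7 Sm genes lay above 0, from 0.03 to 0.24, with a median of 0.13. Wild type fed with inhibitor replicate 1 stood apart in its markers, with 273 CPM of summed pharynx markers against 660 CPM in replicate 2, and without it the count was again 0.

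A second interaction term compared the response to the inhibitor between the strains. It called 8 of the 44 genes, 5 toward a higher change in cdk12-as and 3 toward a lower one, where 6.94% of all genes tested were called, 0.915% and 6.02% in that order. The lower ones were prmt-5 (-1.15 ± 0.10 (adjusted p = 3.14e-05)), sfa-1 (-0.99 ± 0.16 (adjusted p = 0.00207)) and prp-3 (-0.62 ± 0.13 (adjusted p = 0.0122)). The higher ones were snr-7 (0.61 ± 0.14 (adjusted p = 0.0143)), snr-4 (0.54 ± 0.12 (adjusted p = 0.0113)), snr-1 (0.52 ± 0.13 (adjusted p = 0.028)), prp-21 (0.51 ± 0.11 (adjusted p = 0.0112)) and rsp-7 (0.39 ± 0.11 (adjusted p = 0.041)). The calls of prmt-5 and sfa-1 were lost with total counts and in no fit that left out a library. Those of rsp-7 were lost in 14 of 16 such fits, of snr-1 in 9, of snr-7 in 5, of snr-4 in 3, and of prp-21 and prp-3 in 2. The count was 4 without cdk12-as fed replicate 1 or 2, 3 without cdk12-as fed with inhibitor replicate 1, and 2 (prmt-5 and sfa-1) without wild type fed replicate 2. The other 13 genes called in cdk12-as were not called by this term.

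Of the 25 genes that rose with food in cdk12-as, 8 rose further with the inhibitor (prp-4, prp-17, prp-21, rsp-7, snr-1, snr-4, snr-5 and snr-7), 3 fell (lsm-3, prmt-5 and prp-6) and 14 were not called. Over all genes tested 3.77% rose and 8.37% fell with the inhibitor. The same split over all genes that rose with food in cdk12-as was not counted, so these counts have no matching share beside them. The fed cdk12-as libraries enter both comparisons, so the counts also share their error.

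Set against starved larvae of the same strain, food together with the inhibitor raised 30 of the 44 genes in cdk12-as and lowered 4, where 34.1% of all genes tested changed, 17% up and 17.1% down. All 7 Sm genes rose, with changes from 0.95 for snr-3 to 1.54 for snr-5. With total counts 9 of the 44 rose and 3 fell, and the calls of snr-3 and snr-6 were lost while those of the other 5 Sm genes were kept. The 4 that fell were uaf-1 (-0.69 ± 0.11 (adjusted p = 0.000415)), sfa-1 (-0.66 ± 0.12 (adjusted p = 0.000744)), prmt-5 (-0.47 ± 0.07 (adjusted p = 0.000347)) and prp-3 (-0.40 ± 0.10 (adjusted p = 0.00539)). In wild type 21 rose and 5 fell, where 48.4% of all genes tested changed, 26.1% up and 22.2% down, and the directions of prmt-5 (1.27) and sfa-1 (0.40, but -0.03 with total counts) were upward. Those falls of prmt-5 and sfa-1 in cdk12-as stand beside these rises in wild type without a test of that difference.

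Further starvation brought few calls among the 44 genes. Between the start and 4 h of starvation in DMSO, 1 of the 44 genes rose in wild type, rsp-5, from 13 and 14 to 17.2 and 17.8 CPM, 0.37 ± 0.10 (adjusted p = 0.0407), and none fell, where 6.12% of all genes tested changed, 3.04% up and 3.07% down. In cdk12-as edgeR called none, DESeq2 none, and 5 had an unadjusted p under 0.05, where 5.82% of all genes changed, 2.74% up and 3.08% down. The call of rsp-5 was lost without any 1 of 10 libraries. In wild type 8 of the 44 had an unadjusted p under 0.05 by edgeR, beside 3121 of all 15845 genes tested. Of these 8, 6 were SR genes. All 8 SR genes lay above 0 in wild type, with a median of 0.36, while in cdk12-as 4 of the 8 did, with a median of 0.01. Starvation and DMSO were added together here, so they cannot be told apart.

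The genes that fell with the inhibitor were compared for their place in the genome. Positions are those of the ce10 models in the deposited table, which hold coding sequence, and the split described next was drawn after the inhibitor values had been seen. It is a description with no test. In this annotation 6 of the 44 genes have the next gene upstream on their own strand at most 500 bases away. They are rsp-4 (90 bases), sfa-1 (155), prp-38 (162), lsm-3 (226), prmt-5 (343) and mog-2 (450). This is 13.6% of the 44 genes, beside 14.5% of protein-coding genes placed. Operon annotation was not used here.

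All 6 had a log2 change below 0 with the inhibitor in cdk12-as. Of them 3 fell and none rose, and their median was -0.40. Of the other 38 genes 16 rose and 2 fell, with a median of 0.28. Beyond the limit, lsm-6 (584 bases) was at 0.19, rsp-6 (585) at 0.11 and lsm-5 (694) at 0.42, while prp-3 (841) was at -0.55. The gene prp-6, which also fell, has its next upstream gene 13445 bases away. A limit of 300 bases kept 4 genes, 2 of them fallen, and 1000 bases kept 10, 4 of them fallen, and with neither limit did a gene inside it rise. Over all protein-coding genes tested, 28.1% of 1835 with a gap of at most 500 bases fell and 2.56% rose, against 5.47% and 4.25% of 10683 with a larger gap.

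With food the same 6 genes did not go down. In wild type 5 of the 6 rose and none fell, with a median of 0.91. Of all protein-coding genes with a gap of at most 500 bases 34.8% rose and 16.7% fell there, and 24.8% and 23.9% of those with a larger gap. In cdk12-as 5 rose and none fell, with a median of 0.51, where 22.1% of genes with the smaller gap rose and 9.97% fell, and 15.8% and 13.6% of those with the larger gap. In wild type with the inhibitor their median change was 0.07, and none was called, as was 0% of genes with either gap.

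**Figure D5:**
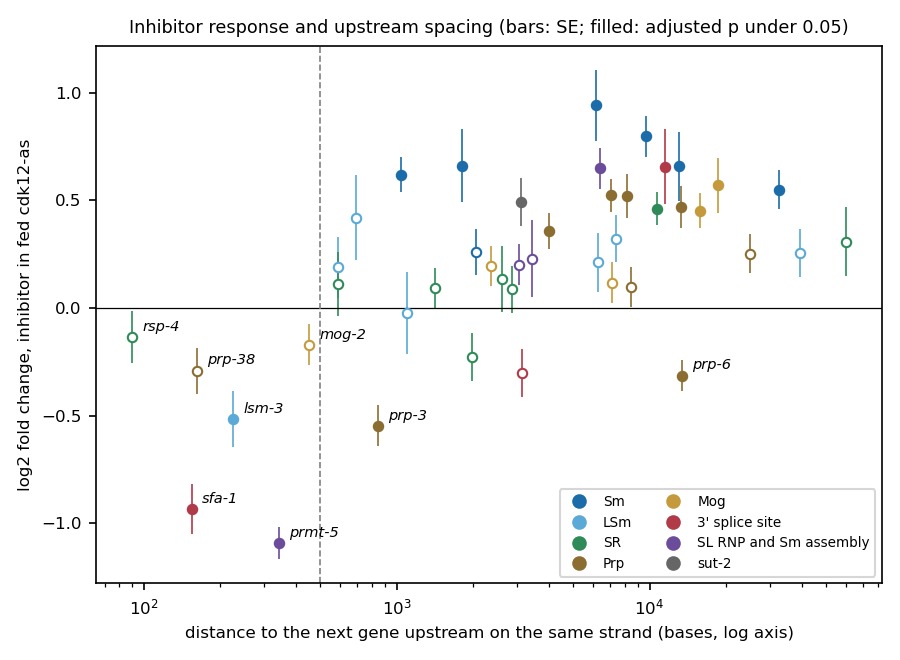
Log2 fold change with inhibitor in fed cdk12-as (y axis) against the distance to the next gene upstream on the same strand (x axis, bases, log scale) for the 44 genes, with bars for the standard error, filled points for adjusted p under 0.05 and a dashed line at 500 bases. All 6 points left of the line lie below 0, and 16 filled points right of it lie above 0.

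Of the neighbours upstream of these 6 genes, 3 rose and 3 were not called with the inhibitor in cdk12-as. Over all genes tested 3.77% rose and 8.37% fell there. The share among upstream neighbours of all closely spaced genes was not counted. The gene before lsm-3, mdt-9 of the Mediator complex, rose with the inhibitor by 0.45 ± 0.13 (adjusted p = 0.0399), while lsm-3 fell by 0.52 on the log2 scale. The gene before prp-38, plrg-1, which is itself a splicing gene, rose by 0.46 ± 0.08 (adjusted p = 0.00107), with prp-38 at -0.29 ± 0.11 (adjusted p = 0.111). The gene before rsp-4, ndx-6, rose by 0.51 ± 0.14 (adjusted p = 0.0383), with rsp-4 at -0.13 ± 0.12 (adjusted p = 0.615). The neighbours of prmt-5 (atp-2, 0.08 ± 0.21), mog-2 (H20J04.6, 0.33 ± 0.13) and sfa-1 (cyn-13) were not called.

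On the minus strand of chromosome IV, uaf-2 (17116851 to 17118507), cyn-13 and sfa-1 (17104509 to 17110946) follow each other in the direction of transcription. They gave 3 different values with the inhibitor, 0.66 ± 0.17 for uaf-2, -0.26 ± 0.11 (adjusted p = 0.182) for cyn-13 and -0.93 ± 0.12 for sfa-1. The gene cyn-13, for a cyclophilin, was at 37.7 and 41.7 CPM in fed and 32.1 and 34.3 CPM in fed cdk12-as with inhibitor. The 2 genes of 3′ splice site recognition in this stretch went from 61.6 and 81.7 up to 101 and 124 CPM for uaf-2 and from 93 and 101 down to 43.4 and 57.9 CPM for sfa-1, the call of uaf-2 being one that 2 single libraries could end.

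On chromosome II, 2 pairs of members transcribed away from each other lie at most 1035 bases apart. The genes snr-3 (minus strand) and rsp-5 (plus strand) are separated by 415 bases, and rsp-2 (minus) and rsp-1 (plus) by 1035 bases. With food in wild type snr-3 changed by 0.55 ± 0.11 and rsp-5 by 0.87 ± 0.10, and rsp-2 by 0.99 ± 0.11 and rsp-1 by 0.92 ± 0.15. The members rsp-4 (minus) and mog-5 (plus) also point away from each other, but they lie 10712 bases apart and are not direct neighbours. The gene ndx-6 lies 90 bases upstream of rsp-4, on the side of mog-5. With food in wild type rsp-4 rose and mog-5 fell by 0.52 on the log2 scale, which is not a comparison within a neighbouring pair. In the strain comparison after starvation snr-3 differed by -0.83 ± 0.11 and rsp-5 by -0.21 ± 0.10, and only snr-3 was called. No member shares exon sequence with another counted gene in these models, and antisense transcripts outside the models were not analysed here.

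A wider list of 66 splicing genes outside the 44 was read in the same fit. In fed cdk12-as 12 of the 66 rose and 11 fell with the inhibitor, or 18.2% and 16.7%, beside 3.77% and 8.37% of all genes tested, with a median of 0.09. The smallest adjusted p was that of smi-1, the Gemin2 partner of SMN, which went from 6.02 and 5.66 to 1.47 and 2.20 CPM, -1.63 ± 0.17 (adjusted p = 3.27e-05). The next 3 by adjusted p were dbr-1, the lariat debranching enzyme, at -0.83 ± 0.10 (adjusted p = 8.49e-05), swp-1 at -0.69 ± 0.09 (adjusted p = 0.000152) and stip-1 at 0.52 ± 0.08 (adjusted p = 0.000661). Of the 63 with a placed upstream neighbour, 18 lay within 500 bases of it, and 2 of them rose and 8 fell, while of the other 45 genes 10 rose and 3 fell. Of all protein-coding genes with the smaller gap, as given above, 28.1% fell and 2.56% rose, and 5.47% and 4.25% with the larger gap. In starved larvae 31 of the 66 were lower in cdk12-as and none was higher, or 47% beside 8.28% of all genes tested. The smallest adjusted p was that of cyn-4, at -0.89 ± 0.07 (adjusted p = 1.26e-05), and the lowest value that of cyn-10, at -1.31 ± 0.14. With food 26 rose and 14 fell in wild type (39.4% and 21.2%, beside 24.4% and 21.5% of all genes), and 34 rose and 3 fell in cdk12-as (51.5% and 4.55%, beside 15.6% and 12.1%).

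Shorter genes tended to have the higher log2 changes with food, and also with the inhibitor in wild type, where no gene was called. Over the 44 genes, Spearman's rho between coding length and the log2 change was -0.52 with food in cdk12-as and -0.38 with food in wild type. It was -0.27 with the inhibitor in cdk12-as and -0.50 with the inhibitor in wild type. Coding lengths ran from 234 bases (lsm-6 and snr-7) to 6990 bases (prp-8). The genes share libraries and classes, short genes being mostly Sm and LSm genes, so these values are descriptions only.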

How the data were processed

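Whole-number read counts per gene were used as the authors deposited them for 24654 genes in 16 libraries. Per the submitters' processing notes, which give no roles, the tools were Trimmomatic, HISAT2, featureCounts, DESeq2 and deepTools 3.2 and the build was ce10. The counter and strand setting behind the gene counts were not given in the sources used here, so reads of a gene and of antisense transcription may not be separable. Special lines without a gene entered neither library sizes nor tests. Reads with no feature were 23.7 to 57.1% and ambiguous ones 0.83 to 10.7% of a column. Gene positions and coding lengths (93.2% multiples of 3) came from a second deposited table, made with featureCounts 1.5.0-p2 and strand setting 2, per the file header. Its 32 per-sample columns could be matched to none of the sample labels and stayed out. The distance upstream is to the nearest counted gene on the same strand that the Ensembl WBcel235 annotation calls protein coding or does not list by that name; no coordinate came from that annotation.

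Counts were fitted in edgeR 4.0.16 (R 4.3.3) as 8 group means over 16 libraries, after filterByExpr (minimum count 10), with TMM scaling, and 12 contrasts were tested, all two-sided. Standard errors were computed as the absolute log2 change over the root of F. Replicates differed by far more than sampling noise (chi-square per degree of freedom 55.2 to 469) and were kept apart. The fit was tested on simulated counts. A first run with smaller built-in fold changes missed its preset recovery limit. The fold changes were then enlarged, so that check does not cover changes as small as many of those given here. Alternatives were other scalings, no filter, DESeq2 1.42.0, a fit of the compared groups alone, a replicate term and leaving out each library.

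All members may be named. Library values go to the 2 members per class with the smallest adjusted p in a comparison, to members against the main direction and to members called with both food and inhibitor. The members and lists were chosen with earlier results of these data known. The wider list held 122 names, of which 69 were in the table, and crn-3, tut-1 and sel-13 were then taken out by name, before any fit but after raw counts of members had been seen. Neighbouring genes, divergent pairs and the spacing split were chosen after values were seen. No sequences are shown.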

Additional observations from a re-analysis of the deposited data

Results flagged for a closer look

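In all, 16 differences between the strains passed the interaction test (edgeR, adjusted p under 0.05), given as the log2 change in cdk12-as minus that in wild type. For food they were prp-31 0.88, snr-1 0.66, sna-1 0.63, snr-7 0.63, snr-4 0.60, mog-5 0.55, prmt-5 -0.58 and rsp-8 -0.64. For the inhibitor they were snr-7 0.61, snr-4 0.54, snr-1 0.52, prp-21 0.51, rsp-7 0.39, prp-3 -0.62, sfa-1 -0.99 and prmt-5 -1.15. The genes snr-1, snr-4, snr-7 and prmt-5 are in both lists, which share the fed libraries of both strains. With 2 libraries a group, no single library could be tested as an outlier.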

How the results depend on the processing

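Of 196 called results of single members over the 12 comparisons, 137 were kept in every fit that left out 1 library, 169 with total counts outside rrn-2.1, 51 with total counts, and 47 in every alternative. Scaling by total counts called fewer of the 44 genes: 10 in place of 26 for food in wild type, 1 in place of 26 for food in cdk12-as, 2 in place of 21 for the inhibitor in cdk12-as, 12 in place of 34 and 11 in place of 26 for food with inhibitor in cdk12-as and wild type, 7 in place of 21 and 10 in place of 25 for the strains at the start and after starvation, and 0 in place of 8, 8 and 1 for the food difference, the inhibitor difference and further starvation in wild type. That scaling turned rsp-7 and sfa-1 to -0.11 and -0.024 with food and to -0.11 and -0.033 with food and inhibitor in wild type, and total counts outside rrn-2.1 turned rsp-7 to -0.00043 with food. The inhibitor difference had 5 calls with total counts outside rrn-2.1, 4 with no filter, 2 with only the compared groups and 13 with the replicate block. The inhibitor in cdk12-as had 11 calls with only the compared groups. Further starvation in wild type had 0 calls with total counts outside rrn-2.1 and with no filter, 2 with only the compared groups and 4 with the replicate block, and in cdk12-as 1 with the block. The cause of these shifts was not tested.

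Leaving out 1 library gave 20 to 30 calls for food in wild type, 20 to 29 for food in cdk12-as, 3 to 9 for the food difference, 12 to 21 for the inhibitor in cdk12-as, 0 to 0 for it in wild type, 2 to 8 for the inhibitor difference, 30 to 36 and 23 to 26 for food with inhibitor in cdk12-as and wild type, 0 to 1 and 0 to 0 for further starvation in wild type and cdk12-as, and 16 to 23 and 20 to 27 for the strains at the start and after starvation. A group left with 1 library was assumed to vary like the others. The labels do not say that a replicate number marks a batch, and there are only 2 numbers. Replicate differences of any 2 of the 8 groups correlated at 0.14 to 0.54 in all 28 pairs. The replicate block gave 32 calls for food in either strain, 15 for the food difference, 24 for the inhibitor in cdk12-as, and 26 (1 of them higher) and 31 for the strains. With 2 libraries a group, depth and replication limit what small differences can be called.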
